A study of Mus musculus with 6 samples.

Results

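The 10 genes described here handle iron and heme. They were taken from the deposited count table by gene symbol, as Hmox1, Hpx, Cd163, Fth1, Ftl1, Slc40a1, Tfrc, Slc11a2, Hamp and Hfe, out of 49568 symbols. All 10 passed the filter on low counts, as did 19199 symbols of the whole table. Bulk RNA-sequencing was performed on whole lungs of 3 TNF+ and 3 TNF- mice, 1 library per mouse. The TNF+ genotype (TNF-Tg) is a human TNF transgene present as 1 copy, and the TNF- controls (WT) came from the same litters without it. All 6 mice were female, 4 months old and on a C57BL/6 background. Cell types were not separated within the lung. The table held 25396923 to 30049463 counts per TNF+ lung and 31400978 to 32529408 per TNF- lung.

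Iron released from the heme of old red cells is recycled mainly by macrophages. Haptoglobin and hemopexin carry free hemoglobin and heme, the receptor CD163 takes up the hemoglobin-haptoglobin complex, and heme oxygenase 1 opens the heme ring to free the iron. The iron is then stored in ferritin, a shell of heavy and light chains, or leaves the cell through ferroportin. Hepcidin, a peptide hormone made mostly by the liver, binds ferroportin and causes its loss, so it sets how much iron leaves cells. Iron regulatory proteins bind a short hairpin, the iron-responsive element, in several of these mRNAs. When cells lack iron this binding blocks translation where the hairpin lies before the coding sequence and protects the mRNA where the hairpins lie after it.

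The iron-responsive elements found in the member transcripts are printed because they tie ferritin, ferroportin and the transferrin receptor to a shared sensor. The letters searched on the transcript strand were a C, any 5 bases, CAGTG and any 6 bases, where the 5 bases before the loop had to pair with the 5 after it, G-T pairs included. Each sequence is 29 bases, 5′ to 3′, from GENCODE M21 transcripts on GRCm38, and capitals mark the loop of the hairpin.
Fth1, 5′ UTR, chr19:9982732-9982760, plus strand: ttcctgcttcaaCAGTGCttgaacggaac
Ftl1, 5′ UTR, chr7:45459779-45459807, minus strand: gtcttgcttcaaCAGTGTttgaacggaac
Slc40a1, 5′ UTR, chr1:45925465-45925493, minus strand: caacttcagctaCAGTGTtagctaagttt
Tfrc site 1, 3′ UTR, chr16:32631219-32631247, plus strand: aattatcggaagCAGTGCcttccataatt
Tfrc site 2, 3′ UTR, chr16:32631598-32631626, plus strand: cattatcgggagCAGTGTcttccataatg
Tfrc site 3, 3′ UTR, chr16:32631663-32631691, plus strand: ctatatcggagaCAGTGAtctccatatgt
Tfrc site 4, 3′ UTR, chr16:32631710-32631738, plus strand: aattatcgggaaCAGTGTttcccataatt
Fth1, Ftl1 and Slc40a1 each held 1 match before the coding sequence, and Tfrc held 4 after it. Among all genes with such a region annotated, 28 of 20561 (0.136%) had a match in a 5′ UTR and 127 of 20937 (0.607%) in a 3′ UTR. The other 6 members had no match to these letters, which says nothing of elements of other letters. A match is a description of sequence, and binding was not measured.

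Between TNF+ and TNF- lungs, 7 of the 10 genes rose and 1 fell, while Tfrc and Hpx did not pass the test. Hmox1 and the ferroportin gene Slc40a1 rose most, both ferritin chains rose more than 3-fold, and the hepcidin gene Hamp fell. Calls were made at an adjusted p of 0.05 (edgeR, quasi-likelihood, Benjamini-Hochberg over 19199 genes). Of all genes tested, 47.4% passed it, 24.0% higher and 23.4% lower in TNF+ lungs. The groups did not overlap in normalized counts for 8 of the 10 genes, against 58.7% of all genes. The median log2 fold change of the 10 genes was 0.94, and that of all genes tested was 0.03. To give normalized counts, each count was scaled by the TMM-adjusted total of its library, relative to the mean of these totals. In whole lungs, fewer cells of a type and less RNA per cell cannot be told apart.

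**Figure D1:**
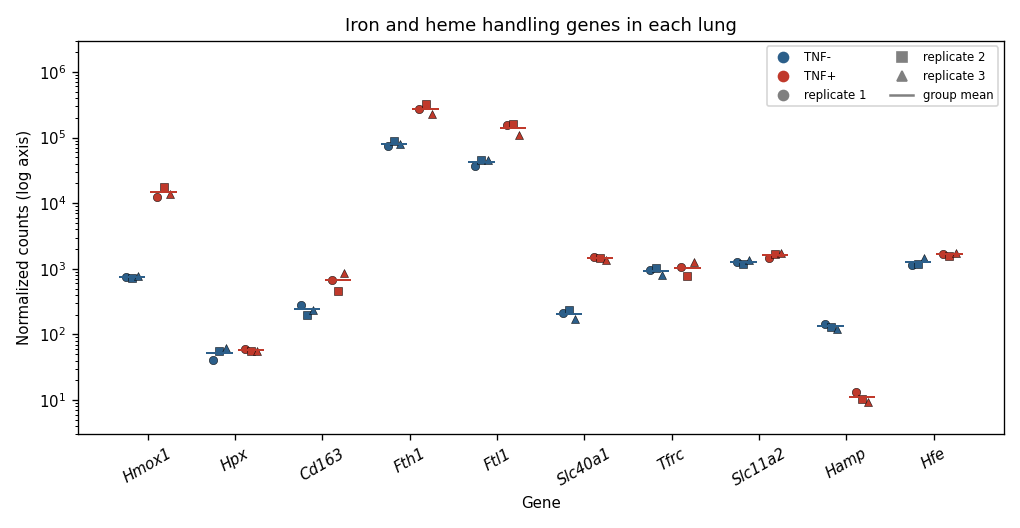
Normalized counts (log axis) of the 10 iron and heme handling genes in each of the 3 TNF- lungs (blue) and 3 TNF+ lungs (red). Symbols give the replicate and short lines the group mean, and the groups are apart for every gene shown but Hpx and Tfrc.

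A pair of libraries stood apart in genes other than these. In TNF+ replicate 1, 5.22% of the counts lay on Gm42418, against 0.0774% to 0.274% in the other lungs. TNF- replicate 1 held 56570 counts of the squamous keratin gene Krt4, where each of the other lungs held at most 8. With both lungs left out, 6 of the 10 genes passed the test, 5 higher and 1 lower, as did 31.2% of all genes (13.8% higher and 17.4% lower). The genes no longer called were Slc11a2 and Hfe, which were also lost when libraries were scaled by total counts only (42.1% of all genes called). A minimum absolute log2 fold change of 1 also left 6 of the 10 (22.5% of all genes), and a replicate block left 8 (40.0%). Between 6 and 8 of the 10 passed when 1 lung was left out. The share of all genes called was then 37.3%, 37.6% and 41.9% without TNF+ replicate 1, 2 and 3, and 37.8%, 37.8% and 46.6% without TNF- replicate 1, 2 and 3.

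Hmox1 (ENSMUSG00000005413.8, chr8:75093621-75100589, GRCm38 like all positions here) encodes heme oxygenase 1, the inducible and rate-limiting enzyme of heme breakdown. It had 12426, 17872 and 13667 normalized counts in TNF+ lungs, against 762.6, 718.8 and 777.5 in TNF- lungs. The genotypes were far apart, and TNF+ replicate 2 was the highest. The means were 14655 ± 2854 (SD, n = 3) and 753 ± 30.5 (SD, n = 3), a ratio of 19.5. The log2 fold change was 4.28 (standard error, SE, 0.17, edgeR adjusted p = 3.19e-06), and the gene ranked 27 of 19199 by p-value. Hmox2, the gene of the constitutive heme oxygenase, rose by a log2 fold change of 0.72 (SE 0.11, edgeR adjusted p = 0.00134).

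Cd163 (ENSMUSG00000008845.9, chr6:124304656-124330527) encodes the hemoglobin scavenger receptor of macrophages. Its normalized counts were 681.7, 463.3 and 861.9 in TNF+ lungs and 284.8, 199.3 and 236.4 in TNF- lungs. The groups did not overlap, although the TNF+ lungs were spread widely. Cd163 had a log2 fold change of 1.48 (SE 0.24, edgeR adjusted p = 0.00144).

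Hpx (ENSMUSG00000030895.9, chr7:105591613-105600137) encodes hemopexin, the plasma protein that binds free heme and is made chiefly in the liver. It was low in all lungs, with 46, 54 and 59 raw counts in TNF+ and 42, 59 and 69 in TNF- lungs. After normalization these were 60.6, 55.8 and 55.7 in TNF+ lungs and 40.1, 56.5 and 61.3 in TNF- lungs, and the groups overlapped. The log2 fold change was 0.12 (95% confidence interval -0.43 to 0.68, edgeR adjusted p = 0.705), so a change of up to those bounds was not detectable here. The sign turned without TNF- replicate 1 (-0.06).

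Macrophage genes moved together with Hmox1 and Cd163. Of 12 markers of interstitial macrophages and monocytes, 11 rose and 1 (Lyve1) fell, and their summed normalized counts were 118444 to 145667 in TNF+ and 19063 to 19945 in TNF- lungs. The median log2 fold change of the 12 was 2.495, with a range from -3.06 for Lyve1 to 4.29 for C1qc. Among them, Cd68 stood at 3.33, Cx3cr1 at 2.33, Mrc1 at 1.53 and Ly6c2 at 1.03, beside 4.28 for Hmox1 and 1.48 for Cd163. Of 10 markers of alveolar macrophages, 3 rose (Marco, Itgax and Chil3), 4 fell (Siglecf, Ear1, Krt79 and Plet1) and 3 did not pass. Their median log2 fold change was -0.15. Their sum was 75191 to 121410 in TNF+ and 11048 to 14234 in TNF- lungs, and most of the TNF+ sum was Marco (49542 to 95434, against 260 to 885 in TNF- lungs). Without Marco the sums were 25649 to 26409 and 10788 to 13349. None of these markers was at 0. These markers moved in the same lungs as the genes Fth1, Ftl1, Slc40a1, Blvrb, Blvra and Spic described below, and the part of cell number in the rise of these genes, Hmox1 and Cd163 was not tested.

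Hemoglobin mRNAs were lower in TNF+ lungs. The 4 hemoglobin genes Hba-a1, Hba-a2, Hbb-bs and Hbb-bt took 0.73% to 1.18% of all counts in TNF+ lungs and 3.49% to 5.87% in TNF- lungs. Of 8 erythroid markers tested, 6 fell and none rose. Hba-a1 had a log2 fold change of -2.16 and Hbb-bs of -1.90 (edgeR adjusted p = 0.000639 and 0.00119). The summed counts of the erythroid markers did not overlap between the groups, and how much blood each lung held was not measured.

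**Figure D2:**
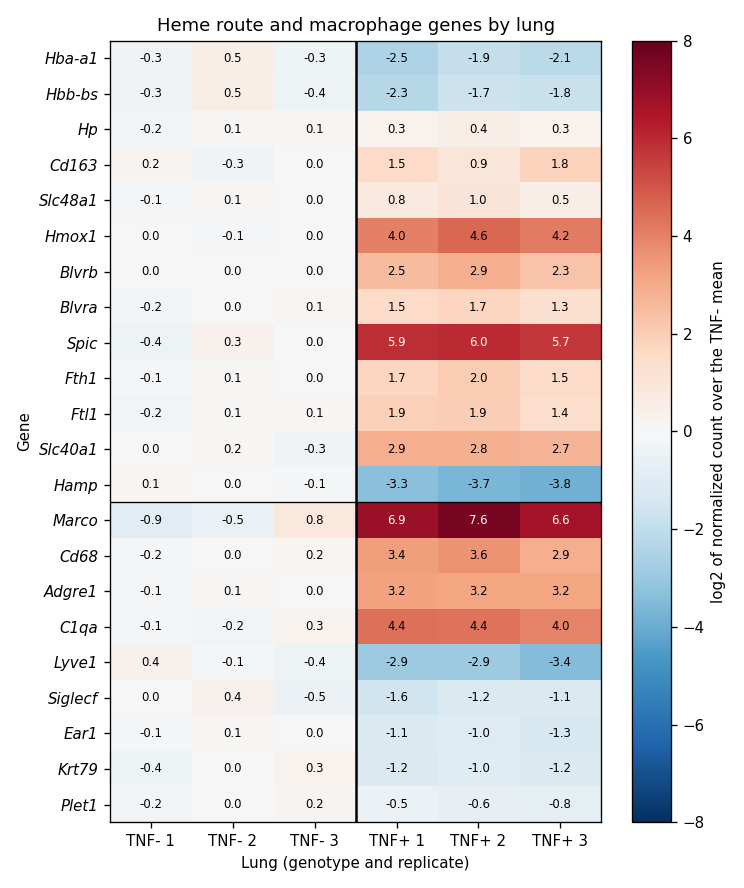
Log2 of the normalized count over the TNF- mean, written in each cell, for heme route genes (above the line) and macrophage markers (below it) in the 3 TNF- and 3 TNF+ lungs. Of the heme route genes shown, only Hba-a1, Hbb-bs and Hamp are below 0 in all 3 TNF+ lungs. Of the markers shown, Marco, Cd68, Adgre1 and C1qa are above 0 and Lyve1, Siglecf, Ear1, Krt79 and Plet1 below it in all 3. Not all listed genes are drawn, and among those left out Flvcr2 fell and the alveolar markers Itgax and Chil3 rose.

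Other genes of heme clearance and transport were taken from a list of 9, of which 5 rose, 1 fell and 3 did not pass. The biliverdin reductases, which act on the product of heme oxygenase, both rose. Blvrb stood at a mean normalized count of 3336 ± 732 (SD, n = 3) in TNF+ lungs, against 558 ± 9.41 in TNF- lungs, a log2 fold change of 2.58 (SE 0.16, edgeR adjusted p = 1.47e-05). Blvra had a log2 fold change of 1.52 (SE 0.15, edgeR adjusted p = 0.000142). Slc48a1, which moves heme out of the phagolysosome into the cytosol, rose by a log2 fold change of 0.77 (edgeR adjusted p = 0.00334). Flvcr2, a member of the same transporter family as the heme exporter Flvcr1 and listed under its older symbol Mfsd7c, fell from 398 ± 21.2 to 124 ± 2.86 normalized counts (SD, n = 3 each). Flvcr1 itself, listed as Mfsd7b, rose by a log2 fold change of 0.85 (edgeR adjusted p = 0.000935). Hp, the haptoglobin gene, lay at 36501 ± 2117 (SD, n = 3) against 28674 ± 3454 (SD, n = 3) and did not pass the test (edgeR adjusted p = 0.0713).

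Of 7 genes that control the response to heme or oxidants, 4 rose, 1 fell and 2 did not pass. All are transcription factors but Keap1, which encodes the adaptor that marks NRF2 for degradation and did not pass. Spic, a factor known for the differentiation of iron-recycling splenic macrophages and for its induction by heme, had 521, 702 and 625 raw counts in TNF+ lungs and 9, 15 and 13 in TNF- lungs. The groups were far apart, with a log2 fold change of 5.84 (SE 0.21, edgeR adjusted p = 2.72e-06). Nfe2l2, which encodes the activator NRF2 of the Hmox1 and ferritin genes, rose by a log2 fold change of 0.51 (edgeR adjusted p = 0.00359). Bach1, the heme-sensitive repressor of the same genes, rose by 0.32 (edgeR adjusted p = 0.0268), and the small MAF partner Mafk fell by 0.62 (edgeR adjusted p = 0.00142), both on the log2 scale. The call of Bach1 was lost without TNF+ replicate 1, 2 or 3 or TNF- replicate 2 or 3 (adjusted p = 0.0525 to 0.109).

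Both ferritin chains rose, and they were the most abundant of the 10 genes. Fth1 (ENSMUSG00000024661.7, chr19:9980598-9985098) encodes the heavy chain, which oxidizes iron for storage. It had 270135, 326910 and 229620 normalized counts in TNF+ lungs and 75585, 87722 and 79486 in TNF- lungs. The log2 fold change was 1.77 (SE 0.20, edgeR adjusted p = 0.000269). Ftl1 (ENSMUSG00000050708.16, chr7:45457944-45459884) encodes the light chain, which helps to form the mineral core. It had 155070, 161616 and 109495 normalized counts against 36249, 45076 and 45107. That made a log2 fold change of 1.75 (SE 0.21, edgeR adjusted p = 0.000304). The genotypes did not overlap for either chain, with replicate 2 the highest and replicate 3 the lowest of the TNF+ lungs. Of the macrophage markers given above, 11 of 12 interstitial ones rose and Lyve1 fell, and 3 of 10 alveolar ones rose and 4 fell. Their part in the rise of ferritin was not tested. Raw counts of Fth1 and Ftl1 together made up 1.23% to 1.57% of a TNF+ library and 0.373% to 0.432% of a TNF- library.

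Ftl1 shares sequence with retrocopies, so its counts are uncertain. Of the 100-base windows of its annotated transcripts, 34.4% also occur in another gene, nearly all of them in Ftl1-ps1, while for Fth1 the share was 0.21% and for the other 8 members 0. The count of Ftl1-ps1 was 0.419 to 0.446 of the Ftl1 count in all 6 lungs, and that of Ftl2-ps was 0.192 to 0.219. The copies rose by log2 fold changes of 1.77 for Ftl1-ps1 and 1.68 for Ftl2-ps, close to that of Ftl1. With the counts of 5 listed copies added to their parents, the log2 fold changes were 1.77 for Fth1 and 1.75 for Ftl1.

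The balance of the chains was compared within each lung. The log2 CPM of Ftl1 minus that of Fth1 was -0.80, -1.02 and -1.07 in TNF+ lungs and -1.06, -0.96 and -0.82 in TNF- lungs. The groups overlapped, and the means differed by -0.02 (two-sided exact permutation test, p = 0.9), less than the spread between lungs (SD 0.14 and 0.12). With 3 lungs per genotype, the smallest p of this exact test is 0.1.

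Genes of ferritin loading and turnover were next. Ncoa4, whose protein carries ferritin to the lysosome for release of its iron, stood at a mean normalized count of 3351 ± 237 (SD, n = 3) in TNF+ lungs, against 2155 ± 297 in TNF- lungs, a log2 fold change of 0.64 (edgeR adjusted p = 0.00316). The iron chaperone gene Pcbp1 rose by 0.34 on the log2 scale (edgeR adjusted p = 0.0303), a call lost without any 1 of 5 lungs, the exception being TNF- replicate 2. Pcbp2 did not pass (log2 fold change 0.16, edgeR adjusted p = 0.4), and Ftmt, at 0 to 5 raw counts per lung, was not tested.

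Slc40a1 (ENSMUSG00000025993.10, chr1:45908068-45926523) encodes ferroportin, the only known cellular iron exporter. It had 1530, 1467 and 1359 normalized counts in TNF+ lungs and 209.3, 232.9 and 171.5 in TNF- lungs. The groups were far apart and the TNF+ lungs close to each other. The means were 1452 ± 86.1 (SD, n = 3) and 205 ± 31.0 (SD, n = 3), a ratio of 7.10, with a log2 fold change of 2.83 (SE 0.14, edgeR adjusted p = 5.76e-06). The same macrophage markers moved with Slc40a1, and their part was not tested. Cp, the gene of ceruloplasmin, a ferroxidase that works with ferroportin, rose by a log2 fold change of 0.94 (SE 0.12, edgeR adjusted p = 0.000494). Heph, the gene of a related membrane ferroxidase, lay at 260 ± 13.7 (SD, n = 3) against 280 ± 43.7 (SD, n = 3) and did not pass (edgeR adjusted p = 0.602).

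Tfrc (ENSMUSG00000022797.16, chr16:32608920-32632794) encodes transferrin receptor 1, through which most cells take up iron. Its normalized counts were 1068, 769.4 and 1283 in TNF+ lungs and 971.8, 1031 and 791.7 in TNF- lungs. The groups overlapped, and replicates 2 and 3 of the TNF+ lungs were its lowest and highest values. The log2 fold change was 0.16 (95% confidence interval -0.27 to 0.59, edgeR adjusted p = 0.515). The sign turned without TNF+ replicate 3 (-0.03), while without TNF+ replicate 2 the value was 0.34. Among 8 proliferation genes, 6 rose and none fell, and their summed normalized counts were 3512 to 4715 in TNF+ and 1380 to 1988 in TNF- lungs. Mki67 was at 2314, 2157 and 2530 normalized counts in TNF+ replicates 1, 2 and 3, and at 1023, 653 and 624 in TNF- lungs. Both Tfrc and Mki67 were highest in replicate 3 and lowest in replicate 2 among the TNF+ lungs. Replicate 2 was below all TNF- lungs for Tfrc and above them for Mki67. The part of proliferation in the level of Tfrc was not tested.

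Uptake and storage were also compared within each lung. The log2 CPM of Tfrc minus that of Fth1 was -7.98, -8.73 and -7.48 in TNF+ lungs and -6.28, -6.41 and -6.65 in TNF- lungs. The groups did not overlap, and the means differed by -1.62 (exact permutation, two-sided p = 0.1, which 3 lungs against 3 cannot go below). With Tfrc itself not called, this difference restates the rise of Fth1 given above. The genes of the iron sensors themselves did not pass the test, with log2 fold changes of 0.12 for Aco1 (iron regulatory protein 1) and 0.23 for Ireb2 (iron regulatory protein 2). Fbxl5, the gene of the ubiquitin ligase subunit that removes these proteins when iron is plentiful, rose by 0.47 on the log2 scale (edgeR adjusted p = 0.00314).

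**Figure D3:**
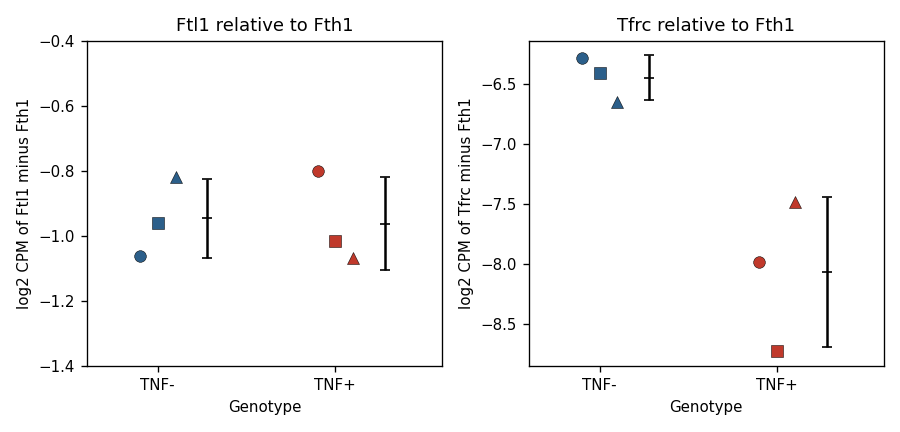
Difference of log2 CPM within each lung for Ftl1 minus Fth1 (left) and Tfrc minus Fth1 (right) in 3 TNF- and 3 TNF+ lungs, with the mean ± SD beside the points and a different axis range in each panel. The Ftl1 differences overlap between genotypes, and the Tfrc differences of the TNF+ lungs all lie below those of the TNF- lungs.

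Slc11a2 (ENSMUSG00000023030.16, chr15:100387898-100425072) encodes DMT1, which carries ferrous iron across the endosomal and apical membranes. It had 1468, 1661 and 1725 normalized counts in TNF+ lungs and 1290, 1165 and 1341 in TNF- lungs. The groups did not overlap, but the change was small (log2 fold change 0.35, SE 0.10, edgeR adjusted p = 0.0205). The call was lost without TNF+ replicate 2 (adjusted p = 0.0596), TNF+ replicate 3 (0.0727), TNF- replicate 1 (0.0662) or TNF- replicate 2 (0.0826), and the adjusted p lay between 0.0189 and 0.110 over all alternatives.

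Among 12 tested genes of cellular iron uptake other than Tfrc and Slc11a2, 2 rose, 6 fell and 4 did not pass. Lcn2, which encodes the siderophore-binding protein lipocalin 2, rose from 8443 ± 3847 to 22791 ± 1581 normalized counts (SD, n = 3 each), a log2 fold change of 1.43 (edgeR adjusted p = 0.0045). Slc39a14, a transporter of iron that is not bound to transferrin, rose by 0.43 on the log2 scale (edgeR adjusted p = 0.0214), a call lost without TNF+ replicate 2 (0.0798) or TNF- replicate 1 (0.0625). The fallen genes were Ltf (lactoferrin), Scara5, Cybrd1, Steap1, Slc39a8 and Steap3. Ltf had 626, 360 and 496 raw counts in TNF+ lungs and 6136, 3245 and 6334 in TNF- lungs, with a log2 fold change of -3.14 (SE 0.35, edgeR adjusted p = 0.00023). Lactoferrin is also a granule protein of neutrophils and a product of airway glands. Of 7 neutrophil markers, 4 fell (Cxcr2 by 2.33, S100a9 by 1.77, Retnlg by 1.48 and S100a8 by 1.04 on the log2 scale) and 2 rose (Mmp9 by 4.99 and Csf3r by 0.64). The calls of S100a8 and Retnlg were each lost without TNF+ replicate 2 or 3 or TNF- replicate 3 (adjusted p = 0.0564 to 0.0728), and that of Csf3r without TNF+ replicate 1 or 3 or TNF- replicate 1 or 2 (0.0881 to 0.11). Their summed normalized counts were 16247 to 20757 in TNF+ and 3035 to 5006 in TNF- lungs, most of the TNF+ sum being Mmp9 (13620 to 18846). Without Mmp9 the sums overlapped, at 1911 to 2930 and 2586 to 4417. Of 8 lung epithelial markers, 5 fell, among them Scgb1a1 by 1.77 on the log2 scale, and none rose. The part of these cells in the fall of Ltf and the other uptake genes was not tested. Tf, the transferrin gene, listed as Trf, lay at 922 ± 112 against 1097 ± 208 normalized counts (SD, n = 3 each) and did not pass (edgeR adjusted p = 0.211).

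Hamp (ENSMUSG00000050440.8, chr7:30942368-30944032) encodes hepcidin and was the only member that fell. It had 10, 10 and 10 raw counts in TNF+ lungs and 152, 137 and 138 in TNF- lungs, which makes it a gene of low counts in lung. After normalization these were 13.2, 10.3 and 9.44 against 145, 131 and 123, so the groups were far apart. The log2 fold change was -3.60 (SE 0.24, edgeR adjusted p = 2.18e-05), with a mean 12.1-fold higher in TNF- lungs. The neighbouring copy Hamp2 stayed at 2 to 4 raw counts in all lungs and was not tested.

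Liver cell markers were set beside Hamp because hepcidin is mainly a liver product. Of the 8 listed, 5 were tested, of which Alb and Ahsg fell, Serpina1a rose and Apoa2 and Tat did not pass. Alb had 3, 2 and 5 raw counts in TNF+ lungs and 27, 36 and 27 in TNF- lungs. Ttr stood at 0 in all TNF+ lungs and at 1 to 4 in TNF- lungs, and Apoa1 and Fgb at 0 to 2 in all lungs. Serpina1a alone held 93.6 to 183 normalized counts in TNF+ lungs and 0 to 1.78 in TNF- lungs. The other 7 liver markers summed to 15.1 to 43.5 in TNF+ and 89.8 to 131 in TNF- lungs, lower along with Hamp, and with Serpina1a included the sums were 137 to 226 and 89.8 to 132. Their part in the change of Hamp was not tested.

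The 250 bases before the Hamp start (RefSeq, GRCm38.p6, chr7:30944030-30944279, minus strand) are printed because Hamp went against the other members and this stretch is the known target of BMP and IL-6 signalling. Capitals mark GGCGCC, the core of BMP-responsive elements, and a match to TTCNNNGAA, the letters of STAT sites.
Hamp promoter: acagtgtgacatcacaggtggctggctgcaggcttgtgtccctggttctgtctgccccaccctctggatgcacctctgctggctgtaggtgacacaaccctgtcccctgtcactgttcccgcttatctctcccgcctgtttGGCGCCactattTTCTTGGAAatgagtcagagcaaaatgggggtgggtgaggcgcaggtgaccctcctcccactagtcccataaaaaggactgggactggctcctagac
The GGCGCC match lay at -109 to -104 from the start and the STAT letters at -97 to -89, with no overlap. On either strand, 9.59% of 32851 promoter windows of this length held GGCGCC and 7.02% held TTCNNNGAA. Of the 7 members with a promoter entry, Tfrc also held GGCGCC. The letters TGANNNNGC, a core of NRF2 sites, occurred upstream of Hpx and Hfe and in 35.2% of all windows. Slc40a1, Hmox1 and Slc11a2 had no entry.

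Hfe (ENSMUSG00000006611.15, chr13:23702034-23710854) encodes the membrane protein that couples transferrin saturation to hepcidin. It had 1700, 1568 and 1720 normalized counts in TNF+ lungs and 1152, 1194 and 1448 in TNF- lungs, without overlap. Hfe had a log2 fold change of 0.39 (SE 0.11, edgeR adjusted p = 0.019). The call was lost without TNF+ replicate 1 (adjusted p = 0.0807), TNF+ replicate 3 (0.0713), TNF- replicate 1 (0.0925) or TNF- replicate 2 (0.0746), and the adjusted p lay between 0.00483 and 0.227 over all alternatives.

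Of 18 tested genes of hepcidin signalling, 2 rose, 8 fell and 8 did not pass. Hjv, the gene of the BMP co-receptor hemojuvelin, listed as Hfe2, had 15, 26 and 42 raw counts in TNF+ lungs and 327, 122 and 128 in TNF- lungs (log2 fold change -2.63, SE 0.47, edgeR adjusted p = 0.00247). TNF- replicate 1, the lung with Krt4 counts, was the highest, and without it the log2 fold change of Hjv (Hfe2) was -2.0029 (edgeR adjusted p = 0.00221). The hemojuvelin partner gene Neo1 fell by 1.39, the ligand gene Bmp6 by 0.85 and the receptor gene Bmpr2 by 1.19 on the log2 scale. Of the BMP target genes, Smad6 fell by 1.61 and Atoh8 by 0.72, while Smad7 (log2 fold change -0.03, edgeR adjusted p = 0.825) and Id1 (-0.28, 0.219) did not pass. Bmp2, which encodes another ligand that induces hepcidin, rose by 1.27 (SE 0.22, edgeR adjusted p = 0.00205). The other gene that rose was Smad1, by 0.56 (SE 0.12, edgeR adjusted p = 0.00603). Il6 had 24, 5 and 12 raw counts in TNF+ lungs and 2, 3 and 5 in TNF- lungs and did not pass the filter. All 6 lung endothelial markers also fell, with summed normalized counts of 39696 to 45121 in TNF+ and 102195 to 126924 in TNF- lungs, and how far the BMP genes moved with them was not tested.

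**Figure D4:**
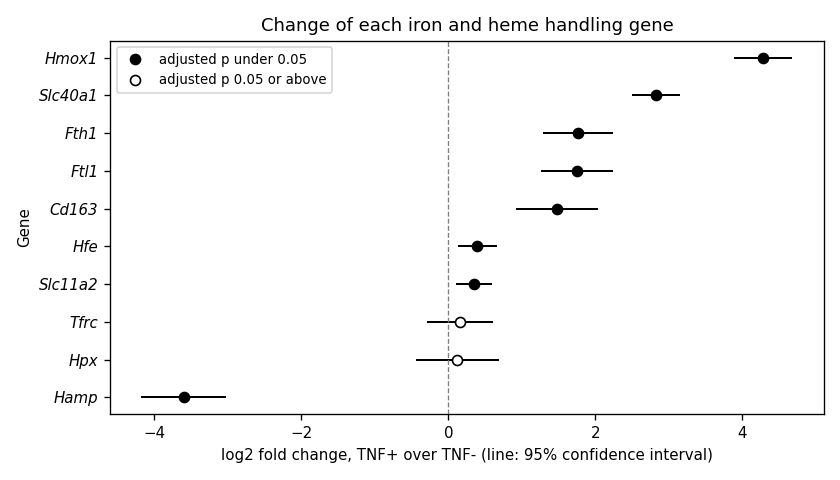
Log2 fold change of TNF+ over TNF- lungs for the 10 genes, with lines for the 95% confidence interval from edgeR. Filled points passed the test, Hamp alone lies below 0, and the intervals of Tfrc and Hpx include 0.

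The remaining lists cover the making of heme and of iron-sulfur clusters. Of 9 heme synthesis genes, 3 fell (Alas2, Alas1 and Alad). Alas2, the erythroid form of the first enzyme, had 1676, 3977 and 3678 raw counts in TNF+ lungs and 8506, 16523 and 7436 in TNF- lungs (log2 fold change -1.64, SE 0.35, edgeR adjusted p = 0.00571), and it is also one of the erythroid markers given above. Of 11 genes of mitochondrial iron and iron-sulfur assembly, Iscu, the scaffold on which clusters form, rose by 0.73 on the log2 scale (edgeR adjusted p = 0.000362). The iron importer gene Slc25a37 rose by 0.40, Isca1 fell by 0.53 (a call lost without TNF+ replicate 1 or 3, adjusted p = 0.0582 and 0.0595), and 8 genes did not pass. Over all 78 listed genes outside the 10 members, 74 were tested, 20 rose and 20 fell, or 54.1% against 47.4% of all genes. With TNF+ replicate 1 and TNF- replicate 1 left out, 30 of these genes passed, 12 higher and 18 lower. Ncoa4, Fbxl5, Steap1 and Slc25a37 were among those no longer called (adjusted p = 0.0524, 0.0598, 0.0541 and 0.091).

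**Figure D5:**
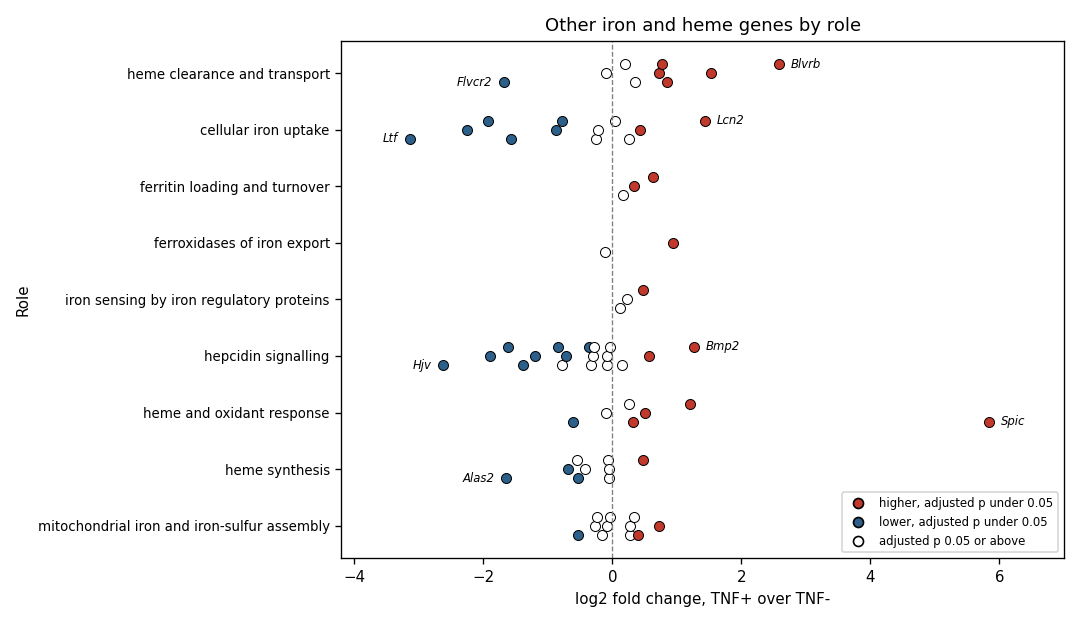
Log2 fold change of TNF+ over TNF- lungs for 74 tested iron and heme genes outside the 10 members, in rows by role, with the highest and the lowest gene of a row named where its log2 fold change is at least 1 in size. Filled points passed edgeR's test (red higher, blue lower), and Spic, at 5.84, lies farthest from 0.

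Levels were compared between the genes as TMM-scaled CPM per kilobase of annotated exon. In TNF- lungs the order was Ftl1 (1041 ± 126, SD, n = 3), Fth1 (772 ± 59.1), Hmox1 (14.2 ± 0.577), Hfe (11.7 ± 1.48), Hamp (10.7 ± 0.921), Slc11a2 (6.59 ± 0.47), Tfrc (4.98 ± 0.667), Cd163 (1.46 ± 0.26), Hpx (1.16 ± 0.245) and Slc40a1 (0.752 ± 0.114). The lungs of Hfe and Hamp overlapped, as did those of Cd163 and Hpx, and the other neighbours were apart. In TNF+ lungs Ftl1 (3508 ± 701) and Fth1 (2628 ± 466) overlapped, and Hmox1 followed at 277 ± 53.9 (SD, n = 3). Slc40a1 stood at 5.34 ± 0.317 between Tfrc and Cd163 and overlapped with both, and Hamp was last at 0.887 ± 0.158. The exon length counts every annotated isoform, among them retained-intron forms of Fth1, which lowers the level of Fth1 on this scale.

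The genes most like Hmox1 and Hamp in pattern were those at the smallest Euclidean distance of gene-centred log2 CPM over the 6 lungs, among 19199 genes. For Hmox1 they were Igsf6 (distance 0.40), 2900052N01Rik (0.46) and Slc11a1 (0.47), the last a divalent metal transporter of macrophage phagosomes. For Hamp they were the endothelial gene Vwf (0.38), Tnxb (0.40) and Slc47a1 (0.42). Igsf6 and Slc11a1 had log2 fold changes of 4.06 and 4.43, and Vwf, Tnxb and Slc47a1 had -3.22, -3.36 and -3.95. Fold changes near those of Hmox1 and Hamp follow from this choice of genes and are not a separate result. Slc47a1 had only 6, 6 and 7 raw counts in TNF+ lungs. 2900052N01Rik had 27, 47 and 27 raw counts in TNF+ lungs and 0 in all TNF- lungs, so its distance depends on the prior count of 2, and no fold is given.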

How the data were processed

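Lung poly(A) RNA from 3 TNF+ (TNF-Tg) and 3 TNF- (WT) mice was sequenced by the authors as stranded single-end libraries of 100 bp reads. Per the submitters' processing notes, reads were cleaned with Trimmomatic (version 0.36 there, an earlier one in the methods text), mapped with STAR (version 2.5.2b) to GRCm38.p5 (mm10) and counted with featureCounts. Its strand setting and annotation are not given in the sources used here. The authors deposited raw counts per gene symbol, without normalization, and all 6 columns were used.

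A quasi-likelihood model in edgeR (4.0.16, under R 4.3.3) was fitted to the counts of genes kept by filterByExpr, scaled by TMM. It held genotype alone, and p-values were adjusted after Benjamini-Hochberg over all tested genes, with 0.05 as the threshold. Standard errors are the log2 fold change divided by the square root of F, and intervals use 95%. Log2 CPM used a prior count of 2. Differences within a lung were compared with exact two-sided permutation tests. Alternatives were DESeq2 (version 1.42.0), limma-voom (limma 3.58.1), other scaling, filters and dispersion, Gm42418 left out, ferritin copies added, the replicate block, calls limited to absolute log2 fold changes of 1 or more, and each lung left out. Leaving out both replicate 1 lungs was added after the data were seen. The code was first tested on simulated data.

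Total counts of 25396923 to 32529408 put the floor of 3 counts at 0.0922 to 0.118 CPM, which covers counting error only. Replicates differed beyond counting noise (chi-square over its degrees of freedom, 53.7 to 140). The 6 mice are different animals, taken as the replicates. Gene positions, exon lengths and transcripts are from GENCODE M21 (GRCm38), which held 47313 of 49568 symbols. Exons of Ftl1 and Slc11a2 overlap annotated genes on the opposite strand, Gm10252 (3 to 25 counts per lung) and Gm5475 (0 to 3).

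The members and lists were chosen with earlier results of these data known. Named were all members, 13 pathway genes picked by role, the tested gene with the largest rise and with the largest fall in each role group, and the 3 genes nearest in pattern to the members with the largest rise and fall. A result for 1 of these genes is not reported here. Other pathway genes and markers were named after their values were seen. Flvcr1, Flvcr2, Tf, Hjv and Erfe were matched by older symbols, and the marker Ahsp was not matched. Besides the lists in the report, B and T cell markers (8 tested, 6 higher, 0 lower), fat markers (3, 0, 1) and squamous markers (2, 0, 1) were counted.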

Additional observations from a re-analysis of the deposited data

How the results depend on the processing

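Hmox1, Cd163, Fth1, Ftl1, Slc40a1 and Hamp kept their direction and their call in all 17 alternative fits each. Their log2 fold changes lay between 4.12 and 4.36, 1.24 and 1.69, 1.63 and 1.87, 1.55 and 1.89, 2.71 and 2.93, and -3.77 and -3.51. Slc11a2 and Hfe each lost the call in 6 of 17, namely in 4 fits without a lung, with total counts only (adjusted p = 0.110 and 0.0758) and without both replicate 1 lungs (0.0796 and 0.227). The number of members called was 6 to 8 over the alternatives, and 6 with total counts only. A minimum absolute log2 fold change of 1 moved the pathway genes called from 40 to 17 and the genes of the whole table from 9096 to 4320, as its construction implies. With each lung left out, these were 36 to 43 pathway genes, 6 to 8 members and 7347 to 9164 genes. In those fits Hpx ranged from -0.0649 to 0.2398, Tfrc from -0.0341 to 0.3379 and the Ftl1 minus Fth1 difference from -0.0964 to 0.0485. Hpx was -0.12 without both replicate 1 lungs (the cause was not tested). The Tfrc minus Fth1 difference stayed negative in all 10 alternatives, between -1.91 and -1.29.

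The labels give same-numbered TNF+ and TNF- lungs no link beyond the number. Their deviations from the group means correlated at -0.149, -0.004 and -0.242 across genes. With so few lungs centred on their own group mean, these correlations cannot show whether same-numbered mice shared a litter or a batch. With the replicate block, 7686 genes, 8 members and 38 pathway genes were called, and no member changed its call. The blocked differences were -0.02 for Ftl1 minus Fth1 and -1.62 for Tfrc minus Fth1. For the latter, exact permutation within pairs gave p = 0.25, the smallest two-sided p that this test can give here. Depth limits Hamp in TNF+ lungs and Hpx in all lungs, where 10 and 42 counts were the lowest values.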
